A study of Homo sapiens with 12 samples.

Results

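The plasminogen activator group comprised 7 of the 23273 genes in the expression tables: the activators PLAT and PLAU, the urokinase receptor PLAUR, the serpins SERPINE2 and SERPINI1, and the annexin A2 complex genes ANXA2 and S100A10. Members were matched by gene symbol, and the list had been chosen from gene levels in these same libraries, so their levels and changes are given as a description, without p-values, and whether a member passed the threshold used for all genes is part of that description and supports nothing. RNA-seq was performed on 12 libraries from 2 human melanoma cell lines, COLO858 and MMACSF. Each line had 2 libraries from cells in the vehicle DMSO, 2 from cells in 0.2 µM vemurafenib (an inhibitor of RAF kinases) for 24 h and 2 from cells in the same dose for 48 h. All cells were grown in plates with serum, and replicates were separate plates of the same line. DMSO cells form a single group per line whose harvest time is not stated in the labels. Each line is 1 established culture. The lines differed in growth medium, and the paper's methods give no seeding density for these plates. Neither can be told apart from the line in any comparison between the lines.

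Plasminogen is a circulating zymogen that is cleaved to plasmin, a protease that dissolves fibrin and degrades extracellular matrix. Tissue-type plasminogen activator (tPA, encoded by PLAT) and urokinase (uPA, encoded by PLAU) make this cut, and serpins block the activators by acting as suicide substrates. Urokinase works at the cell surface bound to its receptor uPAR, whereas the annexin A2 and S100A10 heterotetramer is a docking site for plasminogen and tPA. Melanocytic tumors are known for secretion of tPA, and in the nervous system tPA and its inhibitor neuroserpin (encoded by SERPINI1) act outside fibrinolysis.

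The promoters of the annexin A2 complex and of the urokinase receptor are shown because ANXA2 and S100A10 were both higher at 48 h in COLO858 cells, while PLAUR was lower. Each line gives the 250 bases before the transcription start, 5′ to 3′ on the gene's strand, from RefSeq (GRCh38.p14). The windows are chr15:60397987-60398236 on the minus strand for ANXA2, chr19:43670170-43670419 on the minus strand for PLAUR and chr1:151993860-151994109 on the minus strand for S100A10. Capitals mark TGAGTCA, which with its reverse complement TGACTCA is the core recognized by AP-1 transcription factors.
ANXA2: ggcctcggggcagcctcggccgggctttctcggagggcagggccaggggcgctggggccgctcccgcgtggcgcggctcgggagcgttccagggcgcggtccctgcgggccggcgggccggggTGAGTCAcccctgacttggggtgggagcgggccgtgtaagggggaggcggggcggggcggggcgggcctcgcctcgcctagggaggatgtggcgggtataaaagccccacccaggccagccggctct
PLAUR: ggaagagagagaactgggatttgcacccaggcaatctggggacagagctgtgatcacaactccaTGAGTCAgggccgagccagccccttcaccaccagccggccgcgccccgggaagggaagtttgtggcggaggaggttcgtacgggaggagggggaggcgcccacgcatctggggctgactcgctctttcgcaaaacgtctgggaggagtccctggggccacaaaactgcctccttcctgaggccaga
S100A10: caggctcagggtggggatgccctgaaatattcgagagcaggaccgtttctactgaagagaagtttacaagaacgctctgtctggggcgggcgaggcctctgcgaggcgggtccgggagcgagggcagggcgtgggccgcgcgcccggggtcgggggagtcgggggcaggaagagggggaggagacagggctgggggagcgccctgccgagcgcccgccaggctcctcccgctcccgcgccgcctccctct
Promoter sequences were matched for 6 of the 7 members, and 2 of these 6 genes (ANXA2 and PLAUR) held the motif on either strand. The first motif base lay 127 bases before the start in ANXA2 and 186 bases before it in PLAUR. Among all 35116 promoter windows of this length, 1476 (4.20%) held it. That is a share of windows and not of genes, and PLAU and SERPINE2 each have more than a single window. The match is a description of letters. The promoters were picked by the direction of change, the PLAUR change was not called, and any part of the motif in these changes was not tested.

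Levels are given as FPKM, read counts scaled to transcript length and library size, which corrects for gene length and so allows genes to be compared within a library. Changes are log2 fold-changes of FPKM + 1 ± SE from limma, with 2 libraries per group. Genes were tested when a group mean reached 1 FPKM, and a gene was called when its adjusted p was under 0.01 over all genes tested. As a check of drug action, SPRY4 and DUSP6, feedback genes of the MAPK pathway, fell in both lines at both times (SPRY4 log2 fold-changes −4.82 and −4.90 in COLO858 and −3.57 and −2.76 in MMACSF at 24 and 48 h, adjusted p at most 0.000504; DUSP6 −0.93 to −1.80, adjusted p at most 0.0097). Of 8 melanocyte lineage markers, 6 or 7 reached 1 FPKM in COLO858 groups and all 8 in MMACSF groups; MLANA stayed under 1 FPKM in every COLO858 library (at most 0.725 FPKM) against 962 to 2312 FPKM in MMACSF. Their summed level moved with treatment, from 702 and 717 FPKM in COLO858 DMSO libraries to between 3922 and 4158 FPKM in drug, and from 11160 and 11373 FPKM in MMACSF to between 15589 and 17555 FPKM, and its part in the members' changes was not tested. Of 9 markers of other cell types, LUM alone reached 1 FPKM in COLO858 and LUM and DCN in MMACSF, with a summed level of 5.75 and 8.75 FPKM in DMSO and 15.1 to 26.4 FPKM in drug in COLO858, and of 55.0 and 77.1 FPKM in DMSO and 19.7 to 51.2 FPKM in drug in MMACSF; its part in the results was not tested, and KRT5 and CD3E were listed at 0 in every group mean. In these bulk samples, a change in the number of cells expressing a gene and a change in RNA per cell cannot be told apart.

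SERPINE2 and ANXA2 were the most abundant members, and PLAU the least. In COLO858 cells in DMSO the order was SERPINE2, ANXA2, S100A10, PLAT, PLAUR, SERPINI1 and PLAU, with mean FPKM of 1172, 171, 87.2, 31.3, 5.68, 3.67 and 0.201, and no neighbors overlapped. By 48 h in vemurafenib ANXA2 (mean 1899 FPKM) stood above SERPINE2 (677 FPKM), and PLAT (329 FPKM) stood above S100A10 (266 FPKM). SERPINI1 and PLAUR were neighbors whose libraries overlapped in both treated COLO858 groups. In MMACSF cells ANXA2 led in all 3 groups, and S100A10 and PLAT overlapped in both treated groups. The 2 lines were deposited as separate tables whose common scaling is not stated, so levels in the 2 lines are set side by side only.

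**Figure D1:**
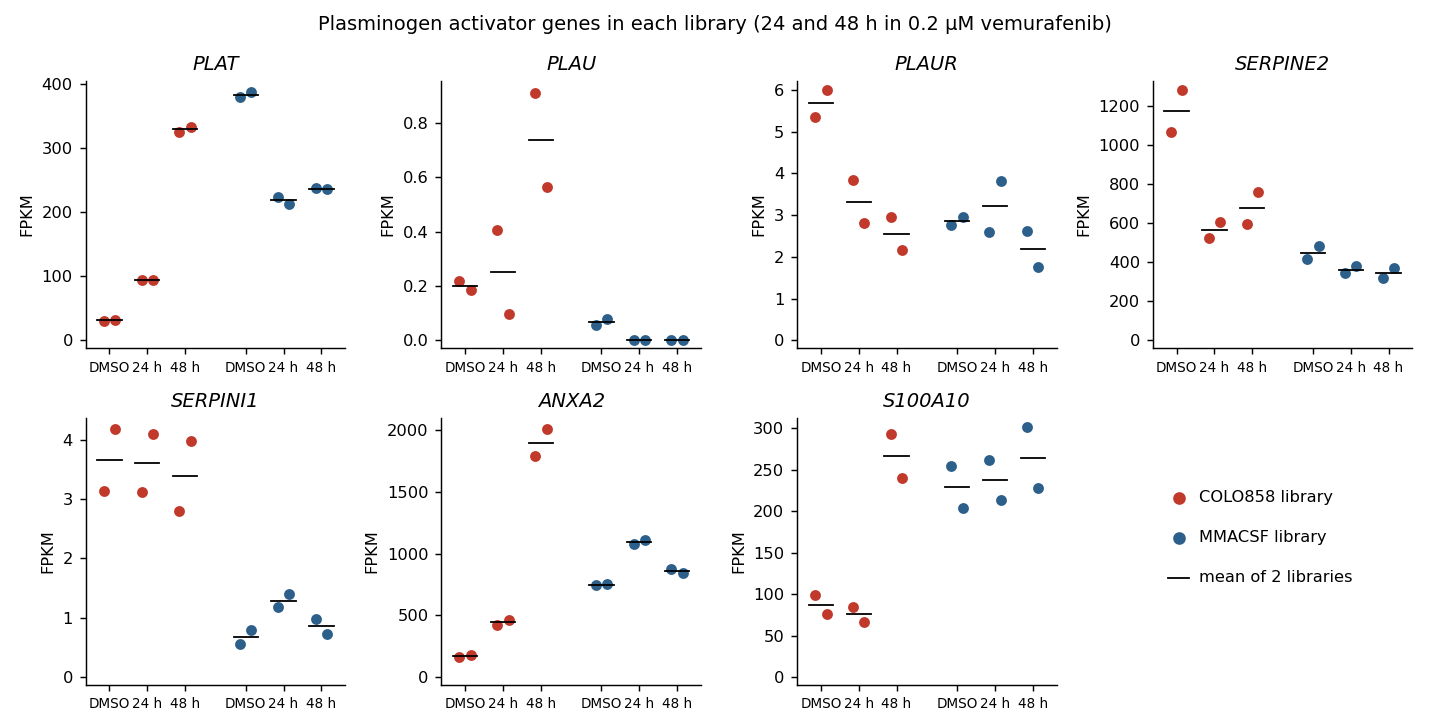
FPKM (vertical axis, linear, own scale in each panel) of the 7 members in each library, by line and treatment (horizontal axis); points are libraries and bars the mean of 2. PLAT and ANXA2 climb in every COLO858 step, from 30.4 to 333 FPKM and from 165 to 2009 FPKM, while MMACSF PLAT drops from 379 and 386 FPKM to between 213 and 237 FPKM.

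In COLO858 cells, PLAT was 3.01-fold higher at 24 h and 10.5-fold higher at 48 h of vemurafenib than in DMSO, and ANXA2 was 2.59-fold and 11.1-fold higher. S100A10 stayed near its DMSO level at 24 h and was 3.05-fold higher at 48 h. SERPINE2 and PLAUR were lower at both times, and SERPINI1 was level. Folds here are ratios of mean FPKM over 2 libraries.

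PLAT (GRCh37 chromosome 8, 42032236 to 42065227, minus strand) encodes tPA. Its level was 30.4 and 32.2 FPKM in the DMSO libraries of COLO858, 93.7 and 94.8 FPKM at 24 h and 325 and 333 FPKM at 48 h. The 3 groups did not overlap and were ordered by time in drug. The log2 fold-change was 1.56 ± 0.11 at 24 h, 3.35 ± 0.11 at 48 h and 1.79 ± 0.11 from 24 to 48 h. Leaving out each library in turn kept the 48 h value between 3.31 and 3.39. In MMACSF cells PLAT began at 379 and 386 FPKM in DMSO, and was at 223 and 213 FPKM at 24 h and 237 and 236 FPKM at 48 h. Both treated groups lay below DMSO without overlap, by −0.81 ± 0.10 and −0.69 ± 0.10 on the log2 scale. The 2 lines moved in opposite directions, and the log2 fold-change in COLO858 exceeded that in MMACSF by 2.37 ± 0.11 at 24 h and 4.04 ± 0.11 at 48 h.

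PLAU (GRCh37 chromosome 10, 75668935 to 75677254, plus strand) encodes urokinase and was under 1 FPKM in all 12 libraries, so it was not tested. COLO858 libraries had 0.218 and 0.185 FPKM in DMSO, 0.404 and 0.0984 FPKM at 24 h and 0.909 and 0.563 FPKM at 48 h. The 48 h libraries lay above both other groups, at levels where the read support is unknown. MMACSF libraries had 0.0580 and 0.0790 FPKM in DMSO, and PLAU was listed at 0 in all 4 drug-treated libraries. PLAUR (GRCh37 chromosome 19, 44150247 to 44174699, minus strand) encodes the receptor that holds urokinase at the cell surface. COLO858 libraries had 5.35 and 6.00 FPKM in DMSO, 3.83 and 2.81 FPKM at 24 h and 2.96 and 2.16 FPKM at 48 h. Both treated groups lay below DMSO, by −0.64 ± 0.20 and −0.92 ± 0.20 on the log2 scale, and overlapped each other. Neither difference reached the threshold for a call. The 48 h one passed with replicate number added to the fit, where 43.7% of all genes were called. In MMACSF cells PLAUR was at 2.76 and 2.95 FPKM in DMSO, 2.61 and 3.83 FPKM at 24 h and 2.63 and 1.77 FPKM at 48 h. The 24 h libraries straddled DMSO and the 48 h libraries lay just below it, with log2 fold-changes of 0.11 ± 0.22 and −0.28 ± 0.22.

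SERPINE2 (GRCh37 chromosome 2, 224839762 to 224904035, minus strand) encodes protease nexin-1, an inhibitor of thrombin, urokinase, tPA and plasmin. COLO858 libraries had 1065 and 1279 FPKM in DMSO, 523 and 607 FPKM at 24 h and 595 and 760 FPKM at 48 h. Treated libraries were all below DMSO, while the 24 h and 48 h libraries overlapped. The mean was 2.07-fold lower at 24 h and 1.73-fold lower at 48 h, with log2 fold-changes of −1.05 ± 0.18 and −0.79 ± 0.18 that did not reach the threshold. The 24 h value passed it after median-ratio rescaling of the libraries. Both values passed with replicate number added to the fit, where 45.0% and 43.7% of all genes were called. MMACSF libraries had 417 and 481 FPKM in DMSO, 342 and 381 FPKM at 24 h and 318 and 368 FPKM at 48 h. There too both treated groups lay below DMSO, by −0.31 ± 0.14 and −0.39 ± 0.14. SERPINI1 (GRCh37 chromosome 3, 167453031 to 167543357, plus strand) encodes neuroserpin, an axonally secreted inhibitor of tPA. COLO858 libraries had 3.14 and 4.19 FPKM in DMSO, 3.12 and 4.09 FPKM at 24 h and 2.80 and 3.99 FPKM at 48 h, and all 3 groups overlapped. MMACSF libraries had 0.559 and 0.789 FPKM in DMSO, 1.17 and 1.40 FPKM at 24 h and 0.980 and 0.729 FPKM at 48 h. Only the 24 h group stood clear of DMSO there, by 0.45 ± 0.17 on the log2 scale, and by 0.42 to 0.85 under the alternatives that kept all libraries. That group alone reached a mean of 1 FPKM in MMACSF, so SERPINI1 was tested there only through the group where it was highest. The difference was not called, and 59.8% of tested genes were separated from DMSO at 24 h in MMACSF.

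ANXA2 (GRCh37 chromosome 15, 60639333 to 60695082, minus strand) encodes annexin A2, a calcium-dependent phospholipid-binding protein. COLO858 libraries had 165 and 176 FPKM in DMSO, 419 and 466 FPKM at 24 h and 1788 and 2009 FPKM at 48 h. The 3 groups did not overlap and were ordered by time in drug. The log2 fold-change was 1.37 ± 0.12 at 24 h, 3.46 ± 0.12 at 48 h and 2.10 ± 0.12 from 24 to 48 h. MMACSF libraries had 744 and 752 FPKM in DMSO, 1082 and 1108 FPKM at 24 h and 879 and 844 FPKM at 48 h. Each treated group lay above DMSO, by 0.55 ± 0.10 at 24 h and 0.20 ± 0.10 at 48 h, and the 48 h group lay below the 24 h group. The COLO858 log2 fold-change exceeded the MMACSF one by 0.82 ± 0.14 at 24 h and 3.26 ± 0.14 at 48 h. ANXA2 has near-identical processed pseudogenes, ANXA2P1, ANXA2P2 and ANXA2P3, which were listed at no more than 0.844, 0.830 and 0.152 FPKM in any library, and how reads shared between copies were assigned is not stated.

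S100A10 (GRCh37 chromosome 1, 151955391 to 151966335, minus strand) encodes p11, the S100 protein that pairs with annexin A2 and carries the plasminogen-binding lysine. COLO858 libraries had 98.4 and 76.0 FPKM in DMSO, 84.9 and 66.9 FPKM at 24 h and 293 and 239 FPKM at 48 h. The 24 h libraries overlapped DMSO and the 48 h libraries lay above both other groups. The log2 fold-change was −0.20 ± 0.21 at 24 h, 1.60 ± 0.21 at 48 h and 1.80 ± 0.21 from 24 to 48 h. The change from 24 to 48 h did not reach the threshold. Within replicate 1 the level went from 84.9 to 293 FPKM, and within replicate 2 from 66.9 to 239 FPKM. This change passed with replicate number added to the fit, where 2280 of 12696 genes were called. MMACSF libraries had 255 and 203 FPKM in DMSO, 262 and 214 FPKM at 24 h and 301 and 227 FPKM at 48 h, and all 3 groups overlapped. Replicate 1 was the higher in each of these groups, and within each replicate number the level was higher at each later time. The log2 fold-changes were 0.06 ± 0.20 at 24 h and 0.20 ± 0.20 at 48 h, and neither was called. The difference between the lines in the log2 fold-change was −0.25 ± 0.31 at 24 h and 1.40 ± 0.31 at 48 h.

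**Figure D2:**
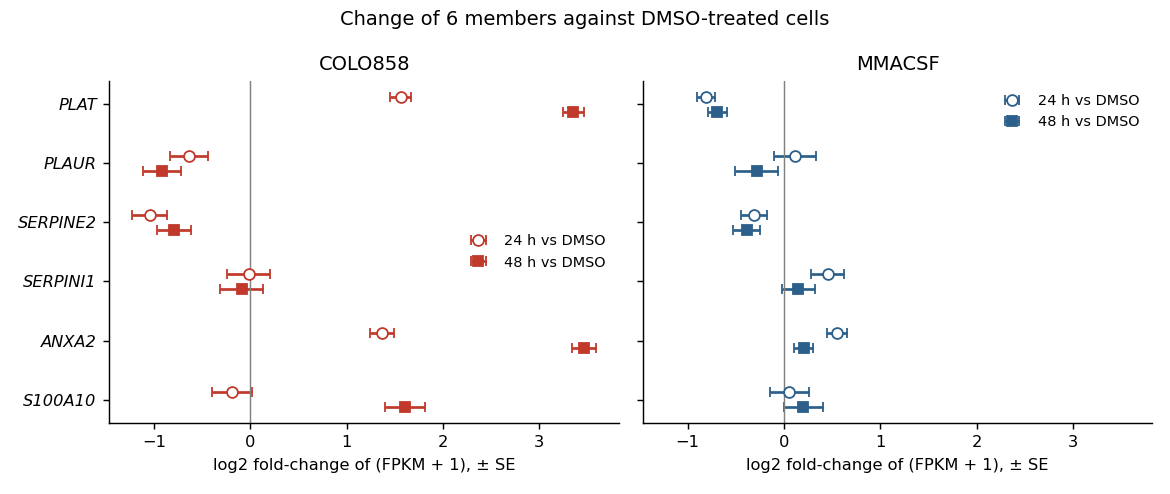
Log2 fold-change of FPKM + 1 against DMSO (horizontal axis, bars are ± SE from limma) of the 6 tested members in each line; open circles are 24 h and filled squares 48 h, 2 libraries per group. In COLO858 the 48 h values of PLAT (3.35) and ANXA2 (3.46) lie farthest right, and in MMACSF PLAT is negative at both times (−0.81 and −0.69).

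Counts of members past the threshold are set beside the share of all genes called, from which nothing is read, since the members were chosen with these contrasts known, and the 24 h and 48 h comparisons of a line share its DMSO libraries. In COLO858, 2 of the 6 tested members were called at 24 h, both higher (PLAT and ANXA2), where 9.82% of 12696 genes were called. At 48 h 3 were called, all higher (PLAT, ANXA2 and S100A10), against 9.47% of genes, and from 24 to 48 h 2 were called, both higher (PLAT and ANXA2), against 1.38%. In MMACSF, PLAT was called lower at 24 h against 5.83% of 12599 genes, and again at 48 h against 8.83%, while 0 members were called by limma from 24 to 48 h against 0.222% (1 had an unadjusted p under 0.05). The line difference was called for PLAT and ANXA2 at 24 h, against 3.71% of 13595 genes, and for the same 2 genes at 48 h, against 7.48%. Groups of 2 libraries often fail to overlap: treated and DMSO libraries were separated for 63.1% and 61.3% of tested genes at 24 and 48 h in COLO858, and for 59.8% and 64.5% in MMACSF, beside 4 and 5 members in COLO858 and 4 and 4 in MMACSF. The median log2 fold-change of the tested members was −0.11 at 24 h and 0.76 at 48 h in COLO858, beside 0.06 and −0.01 over all genes tested, and 0.09 and −0.07 in MMACSF, beside 0.07 and 0.06. With any 1 of the 4 compared libraries left out, calls over all genes in COLO858 dropped to between 114 and 154 at 24 h and between 137 and 151 at 48 h, and members called numbered 0 at 24 h and 2 (PLAT and ANXA2) at 48 h. S100A10 was no longer called at 48 h after median-ratio rescaling of the libraries, with no minimum level, or without any 1 library, while its log2 fold-change stayed between 1.42 and 1.79 with a library left out. PLAT in MMACSF likewise lost its call without any 1 library, as most genes called in that line did, and stayed between −0.84 and −0.77 at 24 h.

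Ratios taken within a library do not depend on how libraries were scaled. The level of SERPINE2 relative to PLAT, an inhibitor relative to its target, was 35.0 and 39.8 in the COLO858 DMSO libraries, 5.58 and 6.41 at 24 h and 1.83 and 2.29 at 48 h. In MMACSF it was 1.10 and 1.24 in DMSO, 1.53 and 1.79 at 24 h and 1.34 and 1.56 at 48 h. Groups did not overlap in COLO858, where the ratio was lower at each later time, and in MMACSF both treated groups lay above DMSO. ANXA2 relative to S100A10 was 1.68 and 2.32 in COLO858 DMSO libraries, 4.94 and 6.97 at 24 h and 6.10 and 8.39 at 48 h. In MMACSF the same ratio was 2.92 and 3.70 in DMSO, 4.13 and 5.18 at 24 h and 2.92 and 3.71 at 48 h. The ratio lay above its DMSO range at 24 h in both lines, and at 48 h it did so in COLO858 and overlapped DMSO in MMACSF.

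**Figure D3:**
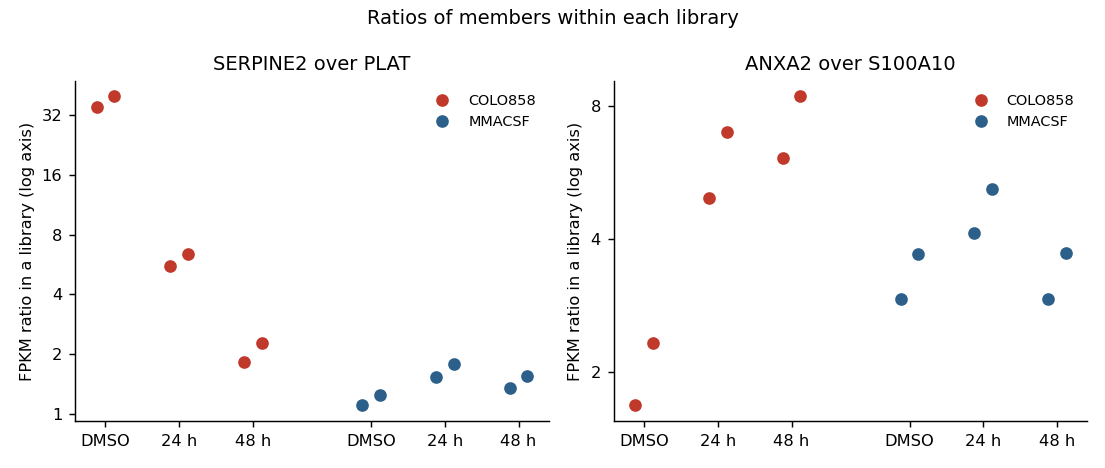
FPKM ratio of SERPINE2 over PLAT (left) and of ANXA2 over S100A10 (right) in each library (vertical axis, log scale), by line and treatment; each point is 1 library. The COLO858 SERPINE2 over PLAT ratio drops from 35.0 to 39.8 in DMSO to 1.83 to 2.29 at 48 h, and the MMACSF ratio stays between 1.10 and 1.79.

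The other genes of the plasminogen system were examined to place the members among their partners. A list of 38 such genes in the tables covered inhibitors, plasminogen and its receptors, uPAR partners, clearance receptors and targets of the activators or plasmin. In COLO858, 24 reached the level for testing and 5 were called at 24 h (2 higher, 3 lower) and 7 at 48 h (2 higher, 5 lower), beside 9.82% and 9.47% of all genes. Median log2 fold-changes of the tested list were −0.34 and −0.48. In MMACSF, 20 were tested and 4 were called at 24 h (2 higher, 2 lower) and 5 at 48 h (3 higher, 2 lower), with medians of −0.12 and −0.07, beside 5.83% and 8.83% of all genes. After median-ratio rescaling 3 were called in MMACSF at 48 h. Between 24 and 48 h 0 of the 24 were called by limma in COLO858 (6 had an unadjusted p under 0.05) and 1 of the 20 (A2M, lower) in MMACSF.

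Among inhibitors, 2 of the 3 tested in COLO858 were lower at 48 h and 1 (A2M) was higher. SERPINB2, encoding a urokinase inhibitor, was at 1.24 and 1.55 FPKM in COLO858 DMSO libraries, was listed at 0 in both 24 h libraries, and fell at both times (−1.26 and −1.22, adjusted p = 0.00385 and 0.00455), calls that were lost when 0.1 FPKM was added in place of 1 FPKM. SERPINA5, the protein C inhibitor, was at 26.3 and 28.9 FPKM in DMSO and 7.78 and 9.33 FPKM at 48 h, a drop called at 48 h (−1.59 ± 0.16, adjusted p = 0.0032) and not at 24 h (−0.21 ± 0.16, adjusted p = 0.353).

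A2M encodes alpha-2-macroglobulin, a broad protease trap that captures plasmin. It rose in COLO858 by 1.63 ± 0.18 at 24 h and 2.17 ± 0.18 at 48 h (adjusted p = 0.00387 and 0.00196). In MMACSF it was at 2.28 and 2.18 FPKM in DMSO, 29.1 and 31.2 FPKM at 24 h and 2.03 and 2.55 FPKM at 48 h, so that it rose by 3.27 ± 0.15 at 24 h (adjusted p = 0.000629) and was at its DMSO level again at 48 h (0.02 ± 0.15, adjusted p = 0.925). The serpins SERPINE2, SERPINI1, SERPINB2 and SERPINA5 summed to 1096 and 1313 FPKM in the COLO858 DMSO libraries and to 605 and 774 FPKM at 48 h, and SERPINE2 made up 95.4% to 98.3% of that sum in COLO858 libraries and 99.6% to 99.9% in MMACSF libraries.

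Among plasminogen and its receptors, PLG, the gene of plasminogen itself, was listed at 0 in all 12 libraries. C9orf46, the older symbol of PLGRKT, which encodes a transmembrane plasminogen receptor, was listed at 0 in all 6 COLO858 libraries and was at 19.7 to 35.3 FPKM in MMACSF. ENO1, alpha-enolase, a glycolytic enzyme that also binds plasminogen at the cell surface, fell in both lines. Its log2 fold-change was −1.47 ± 0.17 at 48 h in COLO858 (adjusted p = 0.00518; −1.12 and 0.0106 at 24 h) and −1.36 ± 0.17 and −1.53 ± 0.17 in MMACSF (adjusted p = 0.00769 and 0.00459).

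Among uPAR partners, VTN and ITGB3 moved apart in COLO858. ITGB3, the beta-3 subunit of the vitronectin receptor, was at 167 and 181 FPKM in DMSO, 29.1 and 29.5 FPKM at 24 h and at most 15.5 FPKM at 48 h, with log2 fold-changes of −2.53 ± 0.12 and −3.43 ± 0.12 (adjusted p = 0.000688 and 0.000262). In MMACSF the ITGB3 log2 fold-changes were −0.56 ± 0.16 and −0.65 ± 0.16 (adjusted p = 0.0657 and 0.0403). VTN, encoding vitronectin, a matrix ligand of uPAR, rose in COLO858 by 1.78 ± 0.17 and 1.90 ± 0.17 (adjusted p = 0.00273 and 0.00234) to no more than 4.62 FPKM.

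Clearance receptors take up complexes of activators with serpins. LRP8, a reelin receptor, fell in both lines (−1.74 ± 0.18 and −1.80 ± 0.16 at 48 h, adjusted p = 0.0038 and 0.00241). VLDLR, a receptor for protease–serpin complexes, rose in MMACSF (1.57 ± 0.14 and 1.76 ± 0.14, adjusted p = 0.0027 and 0.00157) and was at 0.87 ± 0.18 and 0.72 ± 0.18 in COLO858 (adjusted p = 0.0238 and 0.0413). LRP1 is the main endocytic receptor for tPA and for such complexes. In MMACSF it had 35.4 and 22.3 FPKM in DMSO, 101 and 81.3 FPKM at 24 h and 97.5 and 81.7 FPKM at 48 h. The 48 h change was just past the threshold (1.63 ± 0.25, adjusted p = 0.01 after rounding up), and the 24 h change was not called. In COLO858 LRP1 was 1.26 ± 0.28 above DMSO at 48 h (adjusted p = 0.0299). MST1, encoding the growth factor MSP, passed at 48 h in MMACSF (1.98 ± 0.27, adjusted p = 0.00722), a value left uncertain because the gene has near-identical copies. After median-ratio rescaling the calls of LRP1 and MST1, and those of ENO1 at 48 h in COLO858 and 24 h in MMACSF, did not pass.

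**Figure D4:**
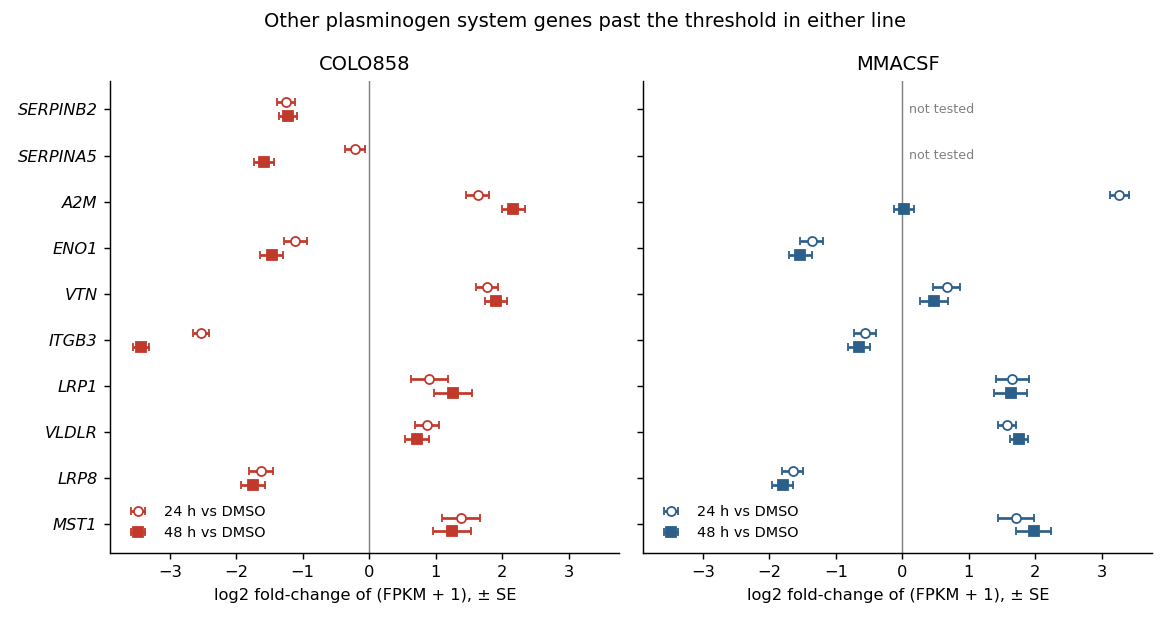
Log2 fold-change of FPKM + 1 against DMSO (horizontal axis, bars are ± SE from limma) of the 10 plasminogen system genes past the threshold in either line; open circles are 24 h and filled squares 48 h. ITGB3 (−2.53 and −3.43) lies far left in COLO858, and A2M in MMACSF is high at 24 h (3.27) and back at 0.02 at 48 h.

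The test of the difference between the lines, fitted over all 12 libraries, called 4 of 26 listed genes at 24 h (0 higher and 4 lower in COLO858 relative to MMACSF) and 6 at 48 h (3 higher, 3 lower), beside 3.71% and 7.48% of all genes. For ITGB3 the difference was −1.97 ± 0.19 and −2.78 ± 0.19 (adjusted p = 0.000781 and 6.15e-05). For A2M it changed sign, from −1.64 ± 0.21 at 24 h to 2.15 ± 0.21 at 48 h (adjusted p = 0.00282 and 0.000407). The 24 h call of A2M was lost when 0.1 FPKM was added in place of 1 FPKM, and with 1 of the 8 libraries left out it held only without COLO858 24 h replicate 2, whereas the 48 h call held under both. AHNAK, encoding a large scaffold protein, and PDGFC, a growth factor activated by tPA, passed in the line difference alone and were named after their values were seen. The difference was −1.20 ± 0.19 for AHNAK at 24 h (adjusted p = 0.00688) and 1.83 ± 0.27 for PDGFC at 48 h (adjusted p = 0.00294). PDGFC was at no more than 0.857 FPKM in every MMACSF library and was not tested within that line. With 1 library left out, AHNAK passed only without MMACSF 24 h replicate 1, and PDGFC did not pass without COLO858 DMSO replicate 1, either MMACSF DMSO library or MMACSF 48 h replicate 1. Leaving out any 1 of the 4 compared libraries cut the calls over all genes in both lines. Of the listed genes, only ITGB3 then stayed called in COLO858 at either time, and in MMACSF only A2M at 24 h and none at 48 h. In the line differences, where 8 libraries enter each contrast, calls over all genes fell as well, and fewer listed genes were called than in the main fit.

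Relatives of the members were examined to see how their families behaved. Their counts at 48 h stand beside 9.47% of all genes tested that were called in COLO858 and 8.83% in MMACSF. Of 32 other serpin genes examined, 9 were tested in COLO858 and 3 were called at 48 h, all lower (SERPINB2, SERPINA5 and SERPINA3). SERPINA3, encoding alpha-1-antichymotrypsin, showed the largest fall of these 3 in COLO858 (−1.93 ± 0.12, adjusted p = 0.00105) after it had risen at 24 h (1.72 ± 0.12, adjusted p = 0.00127). In MMACSF 5 were tested and SERPINA3 was again called lower at 48 h (−2.50 ± 0.22, adjusted p = 0.00232) after a rise at 24 h (1.67 ± 0.22, adjusted p = 0.00847). Of 11 other annexin genes 7 were tested in each line; 0 were called by limma at 48 h in COLO858 (3 had an unadjusted p under 0.05) and ANXA1 was called lower in MMACSF (−0.92 ± 0.11, adjusted p = 0.00501). ANXA1, an anti-inflammatory annexin, had 45.6 and 55.0 FPKM in COLO858 DMSO libraries, 19.4 and 20.4 FPKM at 24 h and 61.1 and 69.9 FPKM at 48 h. Of 15 other S100A genes 8 were tested in each line, and 5 were called in COLO858 and 3 in MMACSF at 48 h, all lower. S100A16 had the largest fall in COLO858 (from 112 FPKM in both DMSO libraries to 14.6 and 14.4 FPKM, −2.87 ± 0.12, adjusted p = 0.000415) and S100A6 in MMACSF (−1.83 ± 0.27, adjusted p = 0.00916). The median log2 fold-change of the 8 tested in COLO858 was −1.42 at 48 h, beside −0.01 over all genes. The S100A6 call was lost after median-ratio rescaling.

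Genes with the most similar pattern were found by Pearson's r over the 12 libraries, on log2(FPKM + 1) less the DMSO mean of the same line, among 11700 genes. All 12 points share 2 lines, and for PLAT and ANXA2 the COLO858 48 h libraries lie far from the rest, so r is a description and carries no p. PLAT was most like PHLDB2 (0.994), SPARC (0.993) and ENC1 (0.991). SPARC, a matricellular glycoprotein, had group means of 147, 550 and 1761 FPKM in COLO858 and 382, 242 and 195 FPKM in MMACSF in DMSO, at 24 h and at 48 h. ANXA2 was most like ADAM23 (0.994), RGS3 (0.989) and PMP2 (0.986), and S100A10 was most like RHOC (0.991), MYO1C (0.980) and COL5A3 (0.974). SERPINE2 was most like IQGAP2 (0.984), NTAN1 (0.983) and GPN3 (0.979), and PLAUR was most like MAGI1 (0.932), ATXN8OS (0.928) and PDGFRL (0.927). The genes nearest to SERPINI1 were RG9MTD2 (0.943), CETN2 (0.913) and HNRNPA1L2 (0.910). SERPINI1 groups overlapped in COLO858, and its MMACSF mean was 1.91-fold higher at 24 h than in DMSO. For PLAU, at levels under 1 FPKM, the nearest genes were PXDC1 (0.949), FOSL2 (0.938) and PITPNM2 (0.932).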

How the data were processed

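Per the labels and methods, stranded poly(A) libraries were sequenced as single 50-base reads, and the submitters' processing notes name TopHat, Cuffdiff and hg19, without versions. The deposited values are FPKM per gene and library, made by the authors, in one table per line; how libraries were scaled to each other, and how shared reads were assigned, is not given in the sources used here. No counts could be recovered from the values, so read depth is unknown, no counting interval is given, and precision rests on 2 replicates; the FPKM sum of a library, 670310 to 1013038, is not its depth. Replicates were separate plates, so p-values measure the spread between plates of 1 line.

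Groups and replicates followed the sample titles. log2(FPKM + 1) was fitted with limma 3.58.1 in R 4.3.3 (3 groups per line; 6 groups over 12 libraries for line differences; trended empirical Bayes, two-sided, Benjamini-Hochberg over all tested genes, threshold 0.01), after a minimum group mean of 1 FPKM. The fit was tested on simulated data. The members, gene lists and tests were chosen with earlier results of these data known, so no p-value is given for a member. Named genes were every member, listed genes past the threshold within a line, PLG, SERPINB2, C9orf46 and LRP1, the largest rise and fall in each family at 48 h, the 3 genes most like each member, SPRY4 and DUSP6 and, added after their values were seen, AHNAK and PDGFC. Some genes of the lists are not reported here and were left out of the list counts. Gene positions came from a GRCh37 annotation and promoters from RefSeq. Alternatives were another added constant, other minimum levels, a replicate block, rescaling, no trend and leaving out each library.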

Additional observations from a re-analysis of the deposited data

Results flagged for a closer look

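Genes named in the report other than members are listed here when the change against DMSO differed between the lines by the interaction test; each value is the log2 fold-change in COLO858 minus that in MMACSF, and groups of 2 libraries were too small to look for outlying libraries. At 24 h the difference was −1.22 for SERPINB2, −1.64 for A2M, −1.20 for AHNAK, −1.97 for ITGB3, −1.25 for SPRY4, −1.04 for ANXA1 and −1.52 for S100A16. At 48 h it was −1.23 for SERPINB2, −1.59 for SERPINA5, 2.15 for A2M, 1.42 for VTN, 1.83 for PDGFC, −2.78 for ITGB3, 0.87 for DUSP6, −2.14 for SPRY4, 1.30 for ANXA1 and −1.62 for S100A16. SERPINB2 and SERPINA5 were at no more than 0.109 FPKM and PDGFC at no more than 0.857 FPKM in every MMACSF library, and S100A16 began in that line at 2.25 and 2.58 FPKM. A2M and ANXA1 were the genes whose difference had opposite signs at the 2 times.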

How the results depend on the processing

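No direction of a called result reversed under any alternative that was run. Adding 0.1 FPKM in place of 1 FPKM left 1 member and 2 listed genes called in the line difference at 24 h. With no minimum level, called members numbered 1 in COLO858 at 24 h, 1 from 24 to 48 h and 1 in the line difference at 24 h, and called listed genes numbered 4 in COLO858 at 48 h and 1 from 24 to 48 h, and in MMACSF 1 at 24 h, 1 at 48 h and 0 from 24 to 48 h. A minimum of 10 FPKM, which removes listed genes from the test, left 1 listed gene in COLO858 at 24 h, 3 at 48 h, 3 in MMACSF at 48 h and 3 in the line difference at 48 h. Rescaling by median ratios gave 1 listed gene in COLO858 from 24 to 48 h and 3 in MMACSF at 48 h, called 3 members in COLO858 at 24 h (SERPINE2 gained) and 2 at 48 h (S100A10 lost), and moved the median change of all genes by less than 0.1. Without a variance trend, 0 members were called in MMACSF at 24 h and at 48 h and 1 in the line difference at 24 h. Among log2 fold-changes of named genes other than members, calls were lost for 28 with no minimum level, 11 with 0.1 FPKM, 6 after rescaling and 3 without a trend. A further 3 were lost at the minimum of 10 FPKM, among values still tested, and 1 with the replicate block. Calls were gained for 27 with the replicate block, 2 after rescaling and 1 with 0.1 FPKM. The cause of these changes was not tested.

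Groups share replicate numbers 1 and 2, and no label says that a number marks a shared day or batch. Deviations of same-numbered libraries correlated across genes at 0.196 to 0.210 in COLO858 and 0.0612 to 0.113 in MMACSF. With 2 libraries per group and no label for a shared batch, the main fit treats the numbers as names and leaves any pairing in the spread. A difference shared by same-numbered libraries then widens the SE, so a change that was not called is not shown to be absent. This bears on S100A10, higher in replicate 1 in 6 of 6 groups, and on SERPINE2, lower in replicate 1 in 6 of 6. With a replicate block, called listed genes numbered 14 in COLO858 at 24 h, 15 at 48 h and 6 from 24 to 48 h. They numbered 11, 9 and 1 in MMACSF, and 9 in the line difference at 24 h. Called members numbered 5 in COLO858 at 48 h (SERPINE2 and PLAUR gained). They numbered 3 and 2 in MMACSF at 24 and 48 h (SERPINE2 gained at both, ANXA2 at 24 h). In the line difference at 48 h, 4 members were called (SERPINE2 and S100A10 gained). In these member comparisons 43.7%, 26.1%, 30.1% and 25.3% of all genes were called, in that order. SERPINE2 was also gained in COLO858 and in the line difference at 24 h, and S100A10 in COLO858 from 24 to 48 h. There the block called 5719 of 12696, 2396 of 13595 and 2280 of 12696 genes, against 1247, 505 and 175 without it. From 24 to 48 h in MMACSF it called 32 of 12599. Calls rose over all genes too, which does not decide whether same-numbered libraries belong together. The gains are therefore given without a conclusion, and pairing itself was not tested. Leaving out each library in turn leaves 1 library in a group. Calls over all genes then fell in every comparison except MMACSF from 24 to 48 h. In COLO858, PLAT and ANXA2 stayed called at 48 h, and no member at 24 h or from 24 to 48 h. No member was called in MMACSF. PLAT stayed called in both line differences and ANXA2 in that at 48 h. Among listed genes, A2M from 24 to 48 h in MMACSF kept its call only without MMACSF 48 h replicate 2. A lone library is assumed there to vary like the other groups.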

Other observations

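C9orf46 (PLGRKT), listed at 0 in COLO858, lies beside other genes listed at or near 0 in that line. JAK2, ERMP1, KIAA2026, MLANA and RANBP6, its neighbors on chromosome 9, reached at most 0.0344, 0, 0.0126, 0.725 and 0 FPKM in any COLO858 library, against at least 4.72, 12.9, 4.10, 962 and 8.69 FPKM in MMACSF. Beyond JAK2 on one side, RCL1 and AK3 reached 9.39 and 16.9 FPKM in COLO858, and beyond RANBP6 on the other, UHRF2 reached 7.16 FPKM. These genes were picked after their values were seen, and the cause was not tested.

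S100A10 was higher in replicate 1 than in replicate 2 in 6 of 6 groups, and SERPINE2 was lower in replicate 1 in 6 of 6, as was the FPKM sum over all genes. For PLAT, replicate 1 was higher in 2 groups and lower in 4. Whether same-numbered libraries shared a preparation is not stated, and the part of this in the results was not tested.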
